A study of Arabidopsis thaliana with 18 samples.

Results

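T101D, the NRT1.1 form that mimics phosphorylation of the threonine T101, was compared with the allele chl1-12 in roots of Arabidopsis thaliana on Affymetrix arrays. The members were chosen by sample title alone: the 3 arrays titled T101D and the 3 titled chl1-12, 6 of the 18 arrays of the series. Plants of both lines grew in vitro for 8 days with 10 mM NH4NO3, and this supply was shared by all 6 genotypes. The other genotypes, each with 3 arrays, were chl1-5, in which NRT1.1 is known to be deleted, chl1-9, which carries a point mutation in it, T101A, in which T101 cannot be phosphorylated, and col, the Columbia wild type. The labels describe neither the lesion of chl1-12 nor the background and promoter of the T101D and T101A lines. They also do not say how many lines or plants each array represents.

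NRT1.1, also called CHL1 and NPF6.3, carries nitrate across the plasma membrane of root cells and also acts as a nitrate sensor. Phosphorylation of T101 is known to switch the protein between low-affinity and high-affinity transport and to alter its signalling to nitrate-responsive genes. The comparison therefore sets a line with a fixed phosphorylation mimic against a line with an undescribed change in the same gene. NRT1.1 is not analysed here: none of the probe sets was annotated to it.

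The 6 arrays had median intensities between 185 and 190, and the arrays of all genotypes between 185 and 197. Correlations across probe sets were 0.986 to 0.987 within T101D, 0.987 to 0.988 within chl1-12 and 0.982 to 0.986 between the lines. GAPDH controls at the 5' end, divided by those at the 3' end, gave ratios between 0.788 and 0.981 on the 6 arrays, and the lowest ratio of all arrays was 0.729 in chl1-9 replicate 3. Root hair markers, which check the tissue label, were bright in both lines: their 6 measured genes summed to 7746 to 8646 in T101D and 7605 to 8644 in chl1-12. Markers of endodermis, phloem, xylem, root cap and meristem were not analysed here, since 0 of them had a named probe set.

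Few transcripts separated the lines. Of 22746 probe sets tested, 42 (0.185%) passed limma's test at an adjusted p under 0.05, 24 higher and 18 lower in T101D (0.106% and 0.0791%), and 10 and 14 of them differed by at least 2-fold. In all 42 the 3 T101D arrays lay wholly above or wholly below the 3 chl1-12 arrays, a separation found for 12.7% of all probe sets. The annotation gave 1 gene to 23 of the 42, 12 higher and 11 lower. Unadjusted p was under 0.05 for 1606 probe sets. The count fell to 27 without T101D replicate 1, to 23 without chl1-12 replicate 2 and to 24 without chl1-12 replicate 3, and 21, 21 and 20 of these were among the 42.

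Each line was also set against the equally weighted mean of chl1-5, chl1-9, T101A and col, in the same fit. Of these only col is wild type, so a line at the level of col can differ from that mean. AT4G32950, for example, differed in T101D by -2.05 from the mean (adjusted p = 3.55e-05) and by 0.13 from col (adjusted p = 0.892). T101D differed from that mean at 57 probe sets (0.251%) and chl1-12 at 14 (0.0615%). The T101D count fell to 12, 21 and 37 without T101D replicate 1, 2 and 3. These contrasts share arrays with the main comparison, so their values are given beside it gene by gene. Differences are on the log2(intensity + 16) scale with their standard error, each fold is the antilog of such a difference and understates the change of dim genes, and confidence intervals are not adjusted for the number of probe sets.

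**Figure D1:**
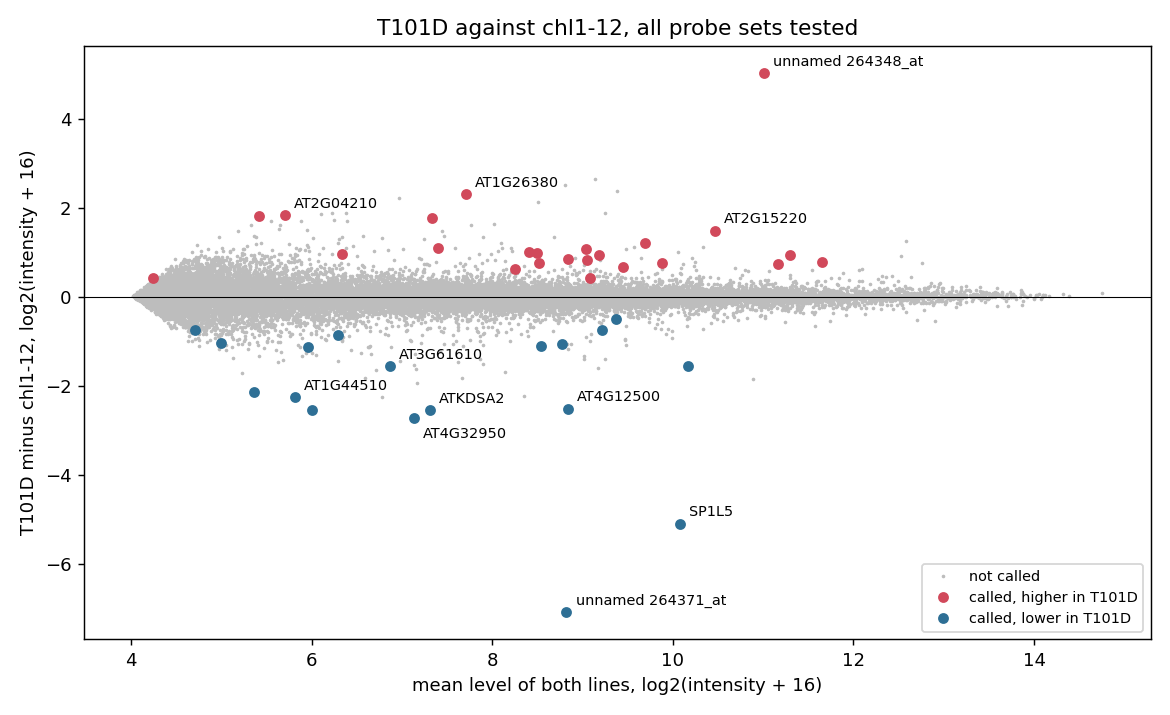
Difference of T101D minus chl1-12 against the mean level of both lines, both as log2(intensity + 16), for 22746 probe sets. Red points are the 24 called higher and blue points the 18 called lower in T101D; the unnamed 264371_at, SP1L5 and the unnamed 264348_at lie farthest from 0.

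The largest difference in either direction belonged to probe sets without a listed gene. Probe set 264371_at measured 32.8, 36.9 and 3.91 in T101D, against 5207, 4901 and 5013 in chl1-12. The T101D arrays were at or near background and the chl1-12 arrays were bright (-7.09 ± 0.32 log2, SE; limma adjusted p = 2.99e-08). Probe set 264348_at ran the other way, at 11777, 11522 and 11926 in T101D against 368, 294 and 377 in chl1-12. This rise was 32.6-fold (5.03 ± 0.24, adjusted p = 3.43e-08). Across genotypes 264348_at averaged 11742 ± 204 in T101D and 347 ± 46 in chl1-12 (SD, n = 3 each). The means were 11.4 ± 15.2 for chl1-5, 10858 ± 879 for chl1-9, 5394 ± 250 for T101A and 6595 ± 507 for col. The order placed T101D and chl1-9 highest, with ranges that overlapped, and chl1-12 between chl1-5 and every other genotype. Both lines differed from the mean of the 4 other genotypes at this probe set, T101D by 2.74 (adjusted p = 8.3e-06) and chl1-12 by -2.29 (adjusted p = 3.48e-05). That mean includes chl1-5, which was at or near background here. Against col alone T101D differed by 0.83 and did not pass (limma adjusted p = 0.194). In chl1-12 minus col the difference was -4.19 (adjusted p = 7.25e-07).

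Genes that were high in chl1-12 made up a first group of the transcripts lower in T101D. SP1L5 (AT4G23496) encodes a SPIRAL1-like protein, of a family that binds microtubules. It measured 229, 139 and 143 in T101D, against 6399.9, 5678 and 6585 in chl1-12. All chl1-12 arrays were far above every other array of the series, where the 4 other genotypes averaged between 112 ± 48 and 196 ± 62. The difference was -5.09 ± 0.35 (34.2-fold, adjusted p = 2.76e-06). Set against the mean of the 4 other genotypes, SP1L5 was higher in chl1-12 by 5.45 ± 0.28 (adjusted p = 1.63e-07), while T101D differed by 0.36 (adjusted p = 0.798).

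AT4G23493, the measured gene next to SP1L5 in locus order, was also high in chl1-12. Its values were 278, 288 and 295 in T101D, against 626, 530.1 and 696 in chl1-12, without overlap (-1.06 ± 0.15, adjusted p = 0.00861). It too was higher in chl1-12 than the mean of the 4 other genotypes (1.22 ± 0.12, adjusted p = 0.000236). Of the 10 nearest measured genes of SP1L5, 5 on each side, AT4G23493 was the single gene called. The next ones outward, AT4G23490 and AT4G23510, averaged 307 ± 20 and 114 ± 13 in T101D, against 378 ± 17 and 143 ± 4 in chl1-12 (-0.29 and -0.30, adjusted p = 0.823 and 0.55). For the other 21 genes with a named call, 0 of the 10 nearest measured genes of each were called. The call of AT4G23493 was lost without chl1-12 replicate 3 (adjusted p = 0.0543).

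A further 3 loci that RefSeq lists as pseudogenes were higher in chl1-12 than in T101D. AT1G44510 measured 2.45, 19.3 and 9.01 in T101D, against 107, 102 and 106 in chl1-12. The chl1-12 arrays lay close together, and every array of the other genotypes was at 31.9 or lower (-2.25 ± 0.35, adjusted p = 0.014). AT1G43590 measured 31.3, 45.7 and 49 in T101D, against 96.7, 65.8 and 105 in chl1-12 (-0.85 ± 0.15, adjusted p = 0.0278). This locus was not low in T101D: it averaged 42.0 ± 9.4 there and 89.2 ± 20.8 in chl1-12, beside means of 23.3 ± 2.7 for chl1-5, 34.1 ± 6.3 for chl1-9, 3.58 ± 1.23 for T101A and 2.32 ± 1.06 for col. T101D and chl1-12 were each higher than the mean of the 4 other genotypes at AT1G43590, by 0.99 (adjusted p = 0.00154) and 1.84 (adjusted p = 1.95e-06). AT3G43680 was dim throughout, at 2.36 to 7.27 in T101D and 14.4 to 23.9 in chl1-12 (-0.75 ± 0.13, adjusted p = 0.0233).

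Against the mean of the 4 other genotypes, AT1G44510 and AT3G43680 were higher in chl1-12 by 2 (adjusted p = 0.00819) and 0.75 (adjusted p = 0.00618). In T101D they differed by -0.26 (adjusted p = 0.88) and -0.01 (adjusted p = 0.994). The calls of all 3 pseudogenes against T101D were lost in 4 of 6 fits that left out an array. For AT1G44510 these were T101D replicate 1 and each chl1-12 array (adjusted p 0.0546 to 0.0776), and for AT1G43590 T101D replicates 1 and 2 and chl1-12 replicates 1 and 3 (0.0649 to 0.138). For AT3G43680 they were T101D replicates 1 and 3 and chl1-12 replicates 1 and 3 (0.0546 to 0.112). Of 923 pseudogene probe sets tested, 5 (0.542%) were called between the lines, against 18 of 12443 protein-coding probe sets (0.145%), and this difference in share was not tested.

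In a second group the low level in T101D was matched in chl1-5 and T101A, while chl1-12 was as bright as chl1-9 and col. ATKDSA2 (AT1G16340) encodes a synthase that makes KDO-8-phosphate, the precursor of a sugar acid of cell wall pectin. It measured 50.3, 56.8 and 41.4 in T101D, against 362, 378 and 359 in chl1-12 (-2.55 ± 0.14, 5.87-fold, adjusted p = 1.26e-07). The arrays of chl1-5 and T101A spanned 35.5 to 62.4 and those of chl1-9 and col 319.5 to 424. T101D differed from chl1-5 by -0.09, with a 95% confidence interval of -0.38 to 0.21. AT3G61610, which encodes a protein related to galactose mutarotases, measured 56.5, 50.6 and 49.1 in T101D, against 168, 183 and 200.1 in chl1-12 (-1.55 ± 0.15, 2.93-fold, adjusted p = 0.000199). It averaged 48.2 ± 5.8 in chl1-5 and 58.9 ± 18 in T101A, and 174 ± 27 in chl1-9 and 222 ± 23 in col. The interval of T101D minus chl1-5 was -0.24 to 0.42. The unnamed 264371_at was split into the same low and high genotypes: it averaged 24.5 ± 18 in T101D and 5040.5 ± 155 in chl1-12, with 56.2 ± 28.9 in chl1-5 and 16.3 ± 6.5 in T101A, and 3660.5 ± 749 in chl1-9 and 4703 ± 246 in col. These 3 calls held with each array left out in turn.

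A further group was low in T101D and col and high in chl1-12 and the 3 other mutant lines. AT4G32950, a type 2C protein phosphatase gene that is known to be induced by nitrate, measured 47.9, 32.5 and 36 in T101D, against 417, 325 and 296 in chl1-12. The T101D arrays lay beside those of col, which spanned 28.2 to 37, and far below those of chl1-12 (-2.72 ± 0.22, 6.59-fold, adjusted p = 1.33e-05). T101D minus col was 0.13, with an interval of -0.33 to 0.59. AT4G12500, which encodes a lipid-transfer-like protein of the cell wall, measured 167, 133 and 223 in T101D, against 1364, 1157 and 731 in chl1-12 (-2.51 ± 0.21, 5.70-fold, adjusted p = 2.44e-05). Here T101D stood above the col arrays, which spanned 72.7 to 108, by 0.79 with an interval of 0.34 to 1.24. This difference from col did not pass (limma adjusted p = 0.154). Its neighbour AT4G12490 measured 262, 313 and 343 in T101D and 584, 834 and 571 in chl1-12, without overlap, but did not pass (-1.06 ± 0.37, adjusted p = 0.427). AT4G32950 and AT4G12500 were both lower in T101D than the mean of the 4 other genotypes, by -2.05 (adjusted p = 3.55e-05) and -1.73 (adjusted p = 0.000182).

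Smaller falls of the same kind were found for AT5G43590, of a family of patatin-like acyl hydrolases, and for AT5G14730. AT5G43590 measured 22.6, 22.6 and 33.2 in T101D, against 67.5, 67.7 and 92 in chl1-12 (-1.12 ± 0.18, adjusted p = 0.0156), and T101D minus col was 0.00 with an interval of -0.39 to 0.39. AT5G14730 measured 527, 560.0 and 534 in T101D, against 772, 732 and 821 in chl1-12 (-0.51 ± 0.08, adjusted p = 0.0156). Both sets of arrays were tight and did not overlap. The unnamed probe set 247591_at measured 7.23, 7.66 and 17.2 in T101D, against 166, 125 and 123 in chl1-12 (-2.54 ± 0.33, adjusted p = 0.00301). It averaged 16.9 ± 17.4 in col, and T101D minus col was -0.20 (interval -0.91 to 0.51). A T101A array, at 31.4, lay below the brightest col array, at 36.8. The call of AT5G43590 was lost without T101D replicates 1 or 2 or chl1-12 replicates 2 or 3 (adjusted p 0.055 to 0.0828), and that of AT5G14730 without replicates 1 or 3 of either line (0.0554 to 0.081).

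**Figure D2:**
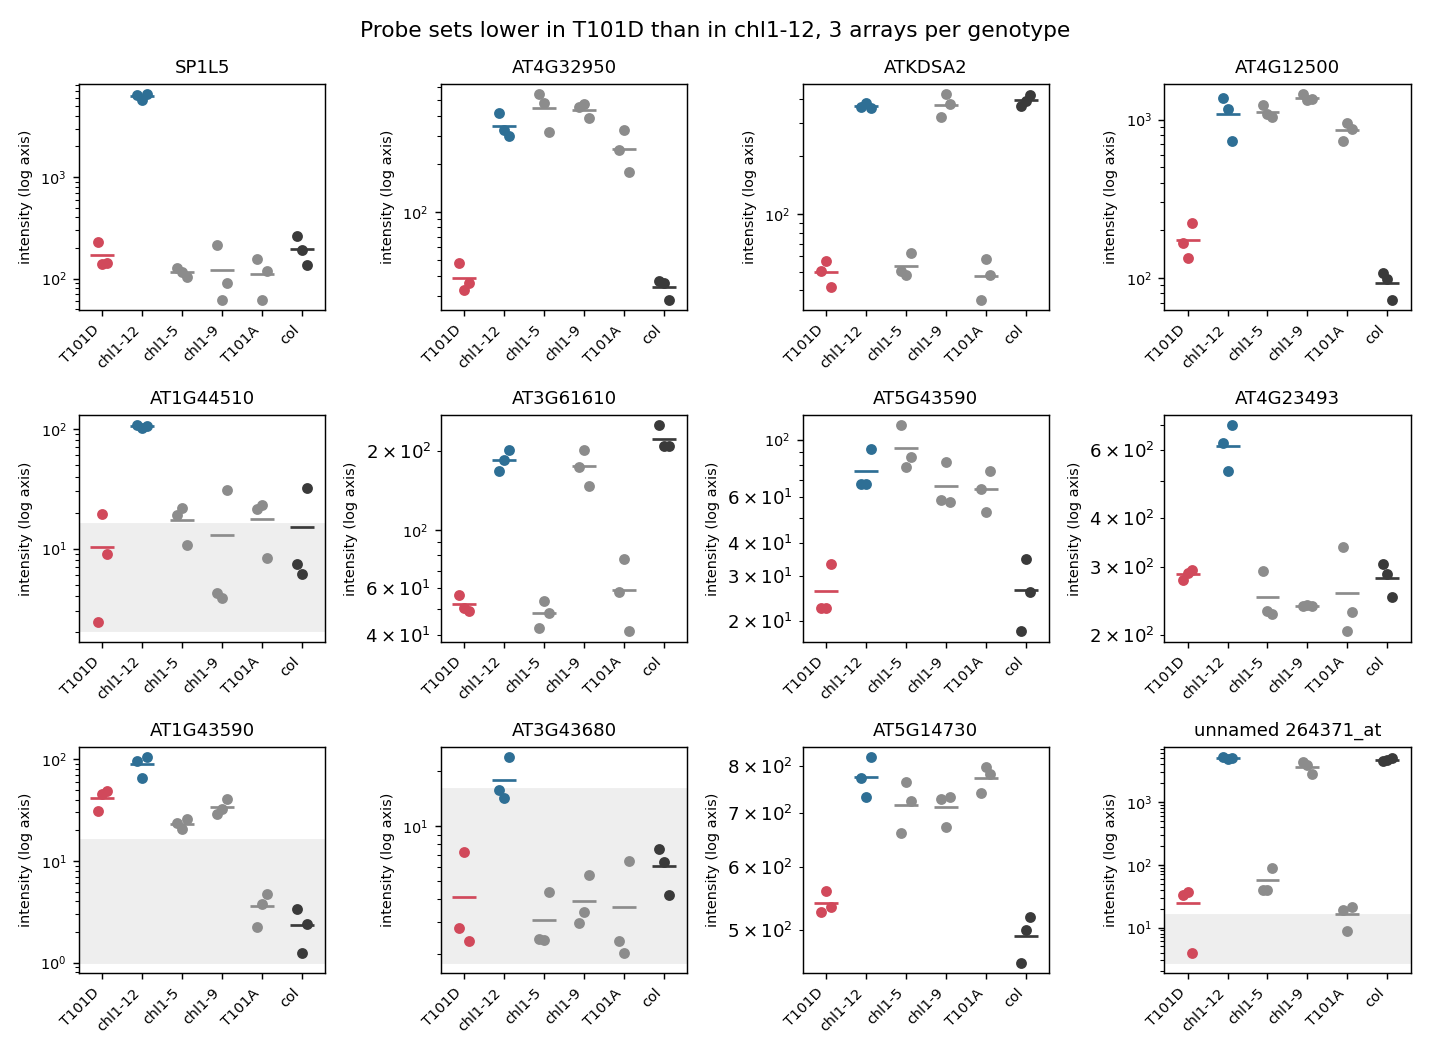
Intensity (log axis) on each of the 18 arrays for the 11 named genes and the unnamed 264371_at that were lower in T101D (red) than in chl1-12 (blue); points are arrays, short lines are means of 3, and the grey band marks intensities under 16. SP1L5 is high in chl1-12 alone, ATKDSA2 is low in T101D, chl1-5 and T101A, and AT4G32950 is low in T101D and col.

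Nitrate-responsive genes were among those higher in T101D than in chl1-12. AT3G25790 and AT1G25550 encode related transcriptional repressors of the GARP family that dampen the response to nitrate and to nitrogen starvation. AT3G25790 measured 565, 421 and 482 in T101D, against 277, 213 and 233 in chl1-12 (0.97 ± 0.15, 1.96-fold, adjusted p = 0.011). AT1G25550 measured 978, 769.6 and 846 in T101D, against 527, 551 and 542 in chl1-12 (0.66 ± 0.10, 1.58-fold, adjusted p = 0.011). AT5G62720, an HPP-family membrane protein gene induced by nitrate, measured 658, 581 and 556 in T101D, against 298, 352 and 319.7 in chl1-12 (0.86 ± 0.10, 1.81-fold, adjusted p = 0.00104). In each of the 3 genes, as at every called rise, all T101D arrays were above all chl1-12 arrays. T101D minus col was 0.21 (interval -0.11 to 0.52) for AT3G25790, 0.07 (-0.15 to 0.28) for AT1G25550 and 0.25 (0.04 to 0.47) for AT5G62720. None of these passed (adjusted p = 0.67, 0.873 and 0.375). In chl1-12 minus col all passed, at -0.77, -0.59 and -0.60 (adjusted p = 0.015, 0.0063 and 0.00555). Against the mean of the 4 other genotypes chl1-12 did not pass for any of them (adjusted p = 0.912, 0.511 and 0.201). Against the mean of the 4 other genotypes T101D was higher at AT3G25790 by 0.62 (adjusted p = 0.0453) and at AT5G62720 by 0.47 (adjusted p = 0.0291), while AT1G25550, at 0.35, did not pass (adjusted p = 0.0929).

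Of 11 measured genes of the nitrate-induced list, 3 rose and 1, AT4G32950, fell, beside 0.185% of all probe sets called. The list median was 0.23, against 0.00 over all probe sets tested. The list was drawn up with earlier results of these data known. AT1G49500 measured 2230.1, 1623 and 1795 in T101D and 682, 965 and 931 in chl1-12, the largest positive difference of the list, and narrowly did not pass (1.12 ± 0.22, adjusted p = 0.0538). AT1G68670, of the same repressor family as AT3G25790, was at 588 to 704 in T101D and 542 to 563 in chl1-12 (0.23, adjusted p = 0.508). The 6-phosphogluconate dehydrogenase genes AT1G64190 and AT5G41670, which supply reducing power in plastids, differed by 0.02 and -0.10, with intervals of -0.16 to 0.20 and -0.32 to 0.12. AT3G25790 lost its call without T101D replicate 1 or chl1-12 replicates 2 or 3 (adjusted p 0.0559 to 0.0673), and AT1G25550 without T101D replicate 1 or chl1-12 replicates 1 or 3 (0.0533 to 0.0566). Without T101D replicate 1, and without chl1-12 replicate 3, 2 of the 11 genes were called.

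Berberine-bridge-like enzymes are secreted oxidoreductases, several of which act in defence metabolism or oxidise cell wall sugars. Of 18 measured genes of the family, AT1G26380 rose and 0 fell, beside 0.185% of all probe sets called, and the list median was 0.08. AT1G26380 measured 483, 654 and 227 in T101D, against 114, 43.9 and 71.8 in chl1-12 (2.30 ± 0.40, 4.91-fold, adjusted p = 0.0278). Its T101D arrays varied widely and, as at every called rise, all lay above the chl1-12 arrays. It averaged 594 ± 44 in col, and T101D minus col was -0.49 (interval -1.35 to 0.37). In chl1-12 it was lower than in col by -2.79 (adjusted p = 0.00196), near the 75.5 ± 30.6 of chl1-5. The neighbouring AT1G26390 measured 1170.0, 1389 and 597 in T101D and 250.2, 89.1 and 178 in chl1-12, without overlap, and did not pass (2.52 ± 0.51, adjusted p = 0.0716). AT1G26410 and AT1G26420 of the same cluster averaged 115 ± 38 and 169.6 ± 38 in T101D, against 42.5 ± 1.1 and 74.4 ± 30.3 in chl1-12 (1.13 and 1.08, adjusted p = 0.262 and 0.283). AT1G26400 was under an intensity of 16 on average in both lines, at 3.84 ± 0.91 in T101D and 8.23 ± 7.06 in chl1-12. The call of AT1G26380 was lost without T101D replicates 1 or 2 or chl1-12 replicates 2 or 3 (adjusted p 0.087 to 0.158).

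Other named rises had no common list. AT2G15220, which encodes a basic secretory protein, measured 2643, 2598 and 1834 in T101D, against 874, 685 and 925 in chl1-12 (1.48 ± 0.24, 2.80-fold, adjusted p = 0.0146). Its probe set carries the suffix that marks cross-matching transcripts, so related genes can share its signal. AT4G16260, a beta-1,3-glucanase gene, measured 4958, 4205 and 3514 in T101D, against 2488, 2353 and 2424 in chl1-12 (0.79 ± 0.11, 1.72-fold, adjusted p = 0.00653). AT1G70810, which encodes a small C2-domain protein that binds membranes in the presence of calcium, measured 712, 703 and 652 in T101D, against 427, 346 and 374 in chl1-12 (0.83 ± 0.11, adjusted p = 0.00495). In all 3 genes, as at every called probe set, the arrays of the lines did not overlap. Each was also higher in T101D than the mean of the 4 other genotypes, AT2G15220 by 1.35 (adjusted p = 0.00602), AT4G16260 by 0.60 (adjusted p = 0.00949) and AT1G70810 by 0.53 (adjusted p = 0.0288). In T101D minus col they differed by -0.23 (interval -0.73 to 0.27), -0.17 (-0.40 to 0.07) and 0.03 (-0.22 to 0.27).

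AT4G30450, a glycine-rich protein gene, averaged 2934 ± 48 in T101D and 1775 ± 178 in chl1-12 (0.72 ± 0.12, adjusted p = 0.015). AT2G16900 averaged 612 ± 36 in T101D and 454 ± 28 in chl1-12 (0.42 ± 0.08, adjusted p = 0.0386). The arrays of T101D and chl1-12 did not overlap at these genes, as at every called probe set. In col they averaged 3375 ± 552 and 654 ± 5, and T101D minus col was -0.19 (interval -0.44 to 0.06) and -0.10 (-0.26 to 0.07). Against the mean of the 4 other genotypes T101D did not pass at either gene (adjusted p = 0.148 and 0.0902). AT2G15220 lost its call without T101D replicates 1 or 2 or chl1-12 replicates 1 or 2 (adjusted p 0.0524 to 0.0854), AT4G30450 without any array but chl1-12 replicate 3 (0.0503 to 0.0874) and AT2G16900 without any of the 6 (0.0551 to 0.191). The unnamed probe set 255812_at measured 55.6, 69.7 and 67.5 in T101D, against 10.6, 4.64 and 5.11 in chl1-12 (1.82 ± 0.29, adjusted p = 0.014), and lost its call without replicates 2 or 3 of either line (0.0503 to 0.0757). It averaged 137 ± 49 in col, and T101D minus col was -0.88 (interval -1.50 to -0.27), which did not pass (limma adjusted p = 0.261). T101D against the mean of the 4 other genotypes did not pass there (adjusted p = 0.0902).

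The remaining 3 named rises, AT2G04210, AT5G08250 and AT4G04430, include the 2 genes with the largest excess of T101D over col among the rises. AT2G04210, listed as a pseudogene and measured by a cross-matching probe set, stood at 55.1, 103 and 89 in T101D, against 2.4, 15.8 and 17.2 in chl1-12 (1.84 ± 0.32, 3.58-fold, adjusted p = 0.0278). The 12 arrays of the other genotypes reached 22.3 at most, and T101D exceeded their mean by 2.16 (adjusted p = 0.00133). AT5G08250, a cytochrome P450 gene, measured 544, 419 and 432 in T101D, against 255, 196 and 220.1 in chl1-12 (1 ± 0.18, 2-fold, adjusted p = 0.0278). Its level in chl1-5, 339 ± 49, and in chl1-9, 349 ± 59, lay between the lines, col had 193 ± 26, and T101D against the mean of the 4 other genotypes did not pass (0.68, adjusted p = 0.0621). The pseudogene AT4G04430 was under 16 on every array, at 6.71, 4.19 and 6.69 in T101D and 0.137, 0.545 and 0.41 in chl1-12 (0.42 ± 0.07, adjusted p = 0.0237), so its difference lies among dim values close to background. T101D minus col was 2.14 (interval 1.45 to 2.82) for AT2G04210, 1.20 (0.83 to 1.58) for AT5G08250 and 0.36 (0.21 to 0.51) for AT4G04430. In this contrast AT2G04210 and AT5G08250 passed (limma adjusted p = 0.0131 and 0.0111) and AT4G04430 did not (adjusted p = 0.0525). Without T101D replicates 2 or 3 or any chl1-12 array the call of AT2G04210 was lost (adjusted p 0.0597 to 0.132), without any of the 6 that of AT5G08250 (0.0541 to 0.154), and without any but T101D replicate 2 that of AT4G04430 (0.0804 to 0.112).

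**Figure D3:**
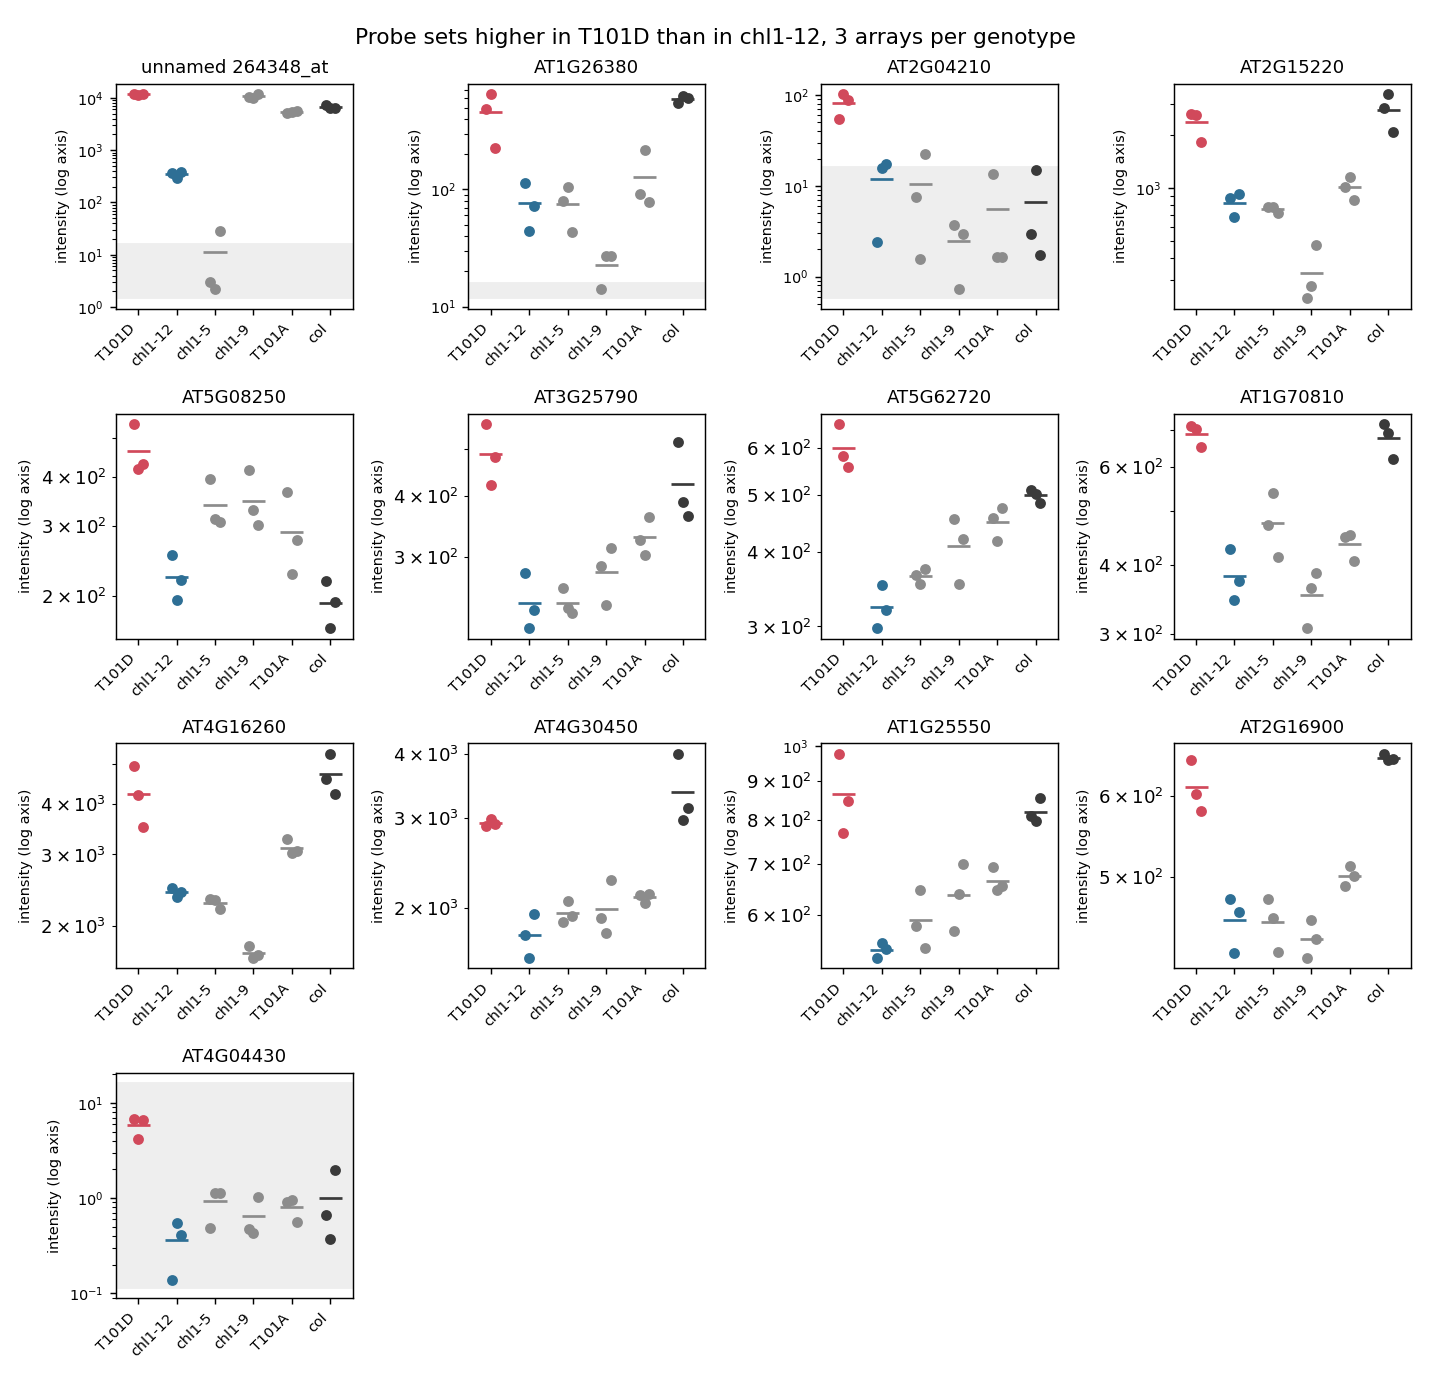
Intensity (log axis) on each of the 18 arrays for the unnamed 264348_at and the 12 named genes that were higher in T101D (red) than in chl1-12 (blue); points are arrays, short lines are means of 3, and the grey band marks intensities under 16. The T101D arrays of AT3G25790 and AT1G25550 lie at the level of col, and those of AT2G04210 lie above all other arrays.

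Genes of green tissue had lower mean levels in T101D, and 0 of them passed the test, beside 0.185% of all probe sets. The 4 measured of 25 green shoot markers, PRK, SBPASE, LHCB4.1 and RCA, differed by -1.14, -1.10, -0.77 and -0.76 (adjusted p between 0.103 and 0.405). Their summed level was 839.9 to 1285 in T101D and 1507 to 2635 in chl1-12, and none was at 0. RCA, which encodes the activase of Rubisco, measured 831, 574 and 888 in T101D and 1708, 1213 and 1025 in chl1-12. The 7 measured genes of the photosystems and antennae had a median of -0.87 and 0 called. Of them 7 of 7 were below 0, beside 11273 of the 22746 probe sets tested. Among them PSAE-1, a subunit of photosystem I, measured 131, 99.1 and 135 in T101D and 614, 281 and 240.0 in chl1-12 (-1.41 ± 0.30, adjusted p = 0.0894). At an unadjusted p under 0.05, 4 of the 4 green shoot markers and 6 of the 7 photosystem and antenna genes were lower and 0 higher. The green shoot, photosystem and carbon fixation lists can share genes, so their medians and counts are not independent. Of the 22746 probe sets tested, 779 were lower and 827 higher at that threshold. In these bulk roots fewer cells of a type and less RNA per cell cannot be told apart.

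Of 8 measured genes of carbon fixation and photorespiration, 0 were called and the median was -0.87, with 5 lower and 0 higher at an unadjusted p under 0.05. AT1G32470, which encodes an H protein of the glycine cleavage system, measured 86.5, 60.6 and 93.6 in T101D and 245, 144 and 142 in chl1-12 (-0.98 ± 0.19, adjusted p = 0.055). HPR, the hydroxypyruvate reductase of peroxisomes, averaged 85.9 ± 20.1 in T101D and 199 ± 78 in chl1-12 (-1.04, adjusted p = 0.155). For most of these genes chl1-12 replicate 1 was the brightest array of the 6. Across 69 plastid-encoded genes the median was -0.28, with 63 below 0, beside 11273 of the 22746 probe sets tested. Of the 69 genes 0 were called, and 5 were lower and 1 higher at an unadjusted p under 0.05. Their summed level was 55634, 55629 and 56070.4 in T101D and 74698, 67557 and 57893 in chl1-12. The part of green tissue in the 42 calls was not tested.

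**Figure D4:**
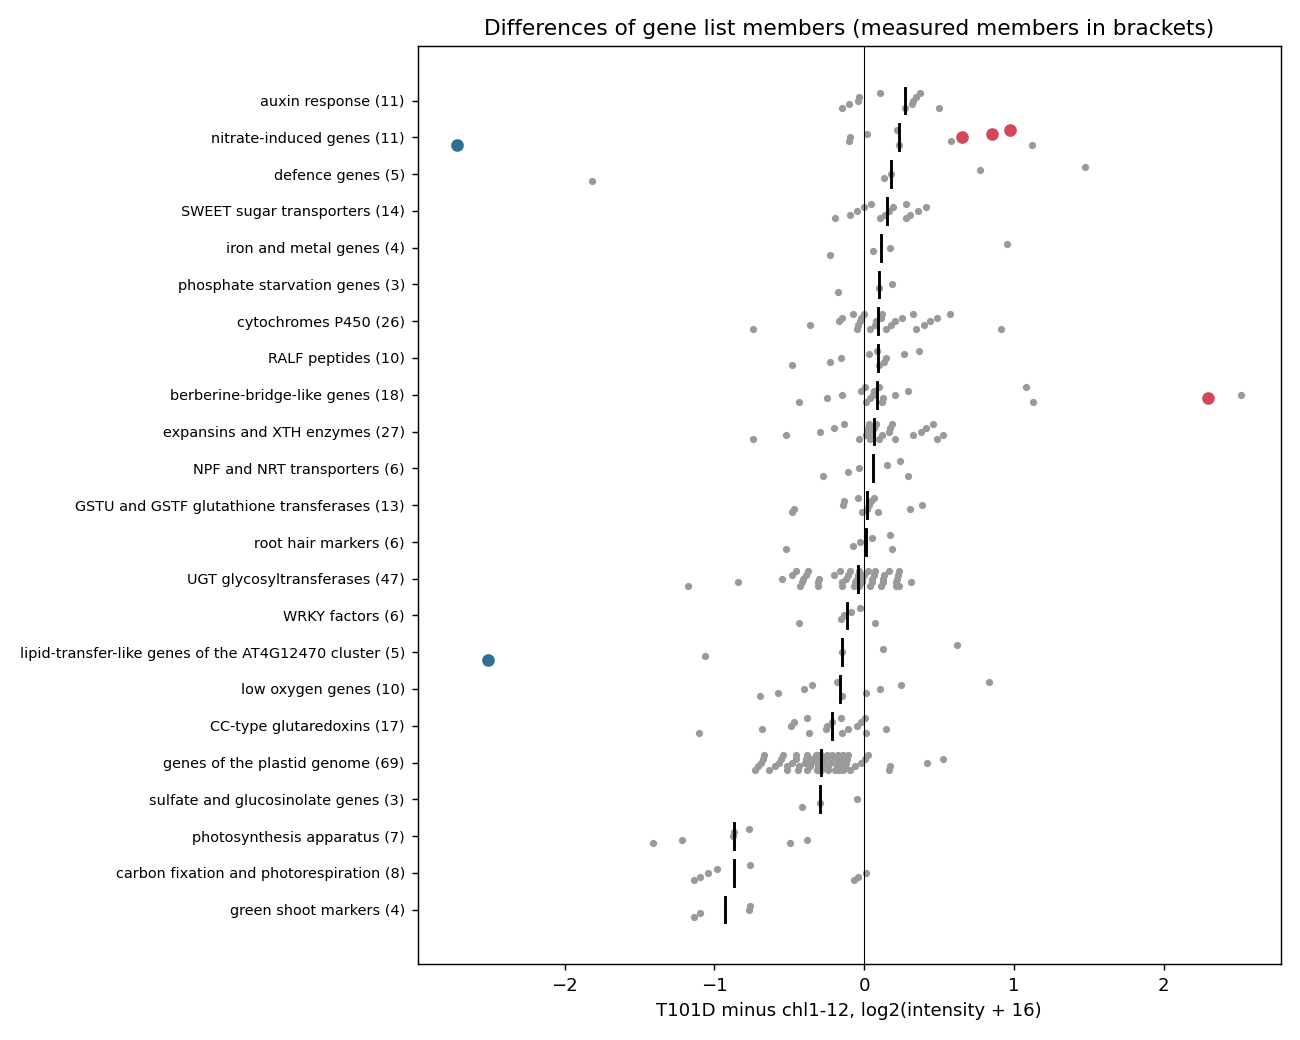
Difference of T101D minus chl1-12 on the log2(intensity + 16) scale for the measured members of each gene list with at least 3 of them; red and blue points are called higher and lower in T101D, grey points are not called, and black bars are list medians. The green shoot, carbon fixation and photosynthesis lists, which can share genes, have medians between -0.93 and -0.87 with 0 called members.

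Transporter, glutaredoxin and root hair lists had 0 called members, beside 0.185% of all probe sets called. Of 6 measured NPF and NRT transporter genes, 0 passed, with differences from -0.28 to 0.29. NPF6.2 (AT2G26690), which acts in nitrate storage in leaf petioles, averaged 196 ± 30 in T101D and 214 ± 48 in chl1-12, and the interval of the difference was -0.43 to 0.22. CC-type glutaredoxins, some of which carry signals of nitrogen demand, had 14 of 17 members below 0, a median of -0.21 and 0 called. Over all probe sets tested, 11273 of 22746 were below 0. AT1G06830 averaged 213 ± 77 in T101D and 241 ± 38 in chl1-12 (interval -0.86 to 0.43), and AT4G33040 averaged 425 ± 62 in T101D and 591 ± 75 in chl1-12 (-0.47, adjusted p = 0.278). Root hair markers had a median of 0.01 over 6 genes and 0 called. The root hair peroxidase gene AT3G49960 measured 1269.9, 1041 and 1279 in T101D and 1287, 1452 and 1063 in chl1-12, and the interval of its difference was -0.39 to 0.23. BCAT4, an aminotransferase of glucosinolate synthesis, averaged 4752 ± 598 in T101D and 4894 ± 475 in chl1-12 (interval -0.41 to 0.32).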

How the data were processed

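The values are intensity per probe set on a linear scale, deposited as 1 table of 22810 probe sets by 18 arrays. Per the labels' protocols, total RNA was extracted with TRIzol and labelled with an Affymetrix 3' IVT Express kit. Probe summarisation and background correction were steps not given in the sources used here. In the values themselves the mean after trimming 2% at each end is 500 on every array, so a change in total messenger RNA cannot be seen. Of the probe sets of the 6 arrays compared, 17.6% to 19.5% lay under an intensity of 16.

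The 64 control probe sets were left out. On log2(value + 16), limma 3.58.1 in R 4.3.3 fitted 1 coefficient per genotype over all 18 arrays, with Benjamini-Hochberg adjustment over 22746 probe sets per contrast. The fit was tested on simulated data. Python 3.11.15, pandas 2.3.3, numpy 2.4.6 and matplotlib 3.10.9 made tables and plots. The number of arrays limits precision; the median within-line SD was 0.15 (log2). Whether replicates came from separate cultures is not stated in the labels, and the p-values reflect the spread among these arrays, which may be technical.

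The platform annotation gave 1 gene to 13513 tested probe sets, several to 503 and none to 8730; 13436 matched RefSeq (TAIR10.1) by gene ID. Gene symbols are those of these tables, and the clauses on what genes do are general background. Named were up to 15 rises and 15 falls among called, non-overlapping probe sets of 1 gene, called members of 31 gene lists (324 genes measured, 6 called; 8 lists had none measured), and up to 2 unnamed probe sets each way. A list took the brightest probe set of a gene. Members and lists were chosen with earlier results of these data known. Genes named from lists without a call were chosen after their values were seen. The main fit did not pair arrays by replicate number, and the labels do not say what the numbers stand for. Deviations of same-numbered T101D and chl1-12 arrays correlated at 0.08, 0.02 and 0.05, and those of other-numbered arrays at -0.08 to 0.04. Between all genotypes, same-numbered arrays correlated at 0.01 to 0.14. Whether same-numbered arrays share an effect was not tested.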

Additional observations from a re-analysis of the deposited data

How the results depend on the processing

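The 42 calls became 66 with array weights, 71 with an intensity trend, 16 in a fit of the 6 arrays alone, which has fewer samples, and between 23 and 41 when any array of the 6 was omitted. Array weights kept all 42, the trend 40 and the 6 arrays alone 13. With the replicate number as a block the count was 78, with 41 of the 42 among them. The numbers are shared between genotypes, but the labels do not say what they stand for. For T101D and chl1-12, each against the mean of the 4 other genotypes, the block gave 67 and 14. The 57 calls of T101D against the mean of the 4 other genotypes became 100 with array weights, 87 with an intensity trend, 31 with a pseudocount of 1 and 12 to 37 without 1 T101D array, and with arrays centred on their medians 42 of 64 were higher, against 31 of 57. The 14 calls of chl1-12 against those genotypes became 8 with a pseudocount of 1. The cause of these changes was not tested. Without chl1-9 replicate 3, chosen as an alternative after earlier results were known, the 3 counts were 50, 63 and 14. Of 27 named genes and probe sets, 0 reversed and 7 kept their call in all alternatives run for them: SP1L5, AT4G32950, ATKDSA2, AT3G61610, 264348_at, 264371_at and 247591_at. In the fit of the 6 arrays alone all 12 named rises and 7 of 11 named falls lost theirs (adjusted p 0.0554 to 0.38). With a pseudocount of 1, 7 calls were lost (0.051 to 0.362): AT1G26380, AT2G04210, AT5G08250, AT1G44510, AT1G43590, AT3G43680 and 255812_at. With an intensity trend AT4G04430 and AT1G43590 lost theirs (0.167 and 0.0566). With a pseudocount of 64 AT4G04430 and AT3G43680 did (0.53 and 0.087). Signal near background limits what can be said of AT3G43680, AT2G04210 and AT4G04430.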

Other observations

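The gene lists in this paragraph had 0 called members between T101D and chl1-12, beside 0.185% of all probe sets called. Among 47 measured UGT glycosyltransferase genes the median was -0.04, with 7 lower and 0 higher at an unadjusted p under 0.05. UGT72B3, of a group that glycosylates monolignols and related phenolics, measured 78.3, 54.1 and 72.1 in T101D and 149, 149 and 107 in chl1-12, without overlap (-0.84 ± 0.18, limma adjusted p = 0.102). Among 26 genes with a P450 symbol, which leave out the called AT5G08250, the median was 0.09, with 3 higher and 1 lower at an unadjusted p under 0.05, and CYP71B6 averaged 2592 ± 335 in T101D and 1737 ± 259 in chl1-12 (0.58, adjusted p = 0.241). Expansins and XTH enzymes, which loosen or remodel cell walls, had a median of 0.07 over 27 genes. SWEET sugar transporters had a median of 0.15 over 14 genes, RALF peptides 0.09 over 10, GSTU and GSTF glutathione transferases 0.02 over 13, auxin response genes 0.27 over 11, WRKY factors -0.11 over 6 and low oxygen genes -0.16 over 10, all with 0 called.

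In smaller lists some genes differed in level without passing the test. AT4G33720, a relative of the secreted defence protein PR-1, averaged 88.4 ± 10 in T101D and 379 ± 191 in chl1-12, without overlap but with a wide spread in chl1-12 (-1.82 ± 0.50, adjusted p = 0.229). The TIR-domain gene AT1G57630 measured 83.5, 60.7 and 6.58 in T101D and 4.47, 4.56 and 3.11 in chl1-12 (1.47, adjusted p = 0.248). The 5 measured defence genes had a median of 0.18 and 0 called. AT1G47400, which encodes a peptide of the iron deficiency response, measured 74.1, 73.2 and 84.7 in T101D and 47.2, 20.5 and 32.5 in chl1-12 (0.95 ± 0.24, adjusted p = 0.169). The 4 iron and metal genes, 3 sulfate and glucosinolate genes and 3 phosphate starvation genes measured had medians of 0.12, -0.29 and 0.10, with 0 called. The 5 measured lipid-transfer-like genes of the AT4G12500 list had a median of -0.15 and 1 called, beside 0.185% of all probe sets called.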
